A study of Macaca fascicularis with 56 samples.

Results

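The 36 genes described here encode glucose transporters, the enzymes of glycolysis, the enzymes that make lactate or control the entry of pyruvate into mitochondria, 3 enzymes of the pentose phosphate pathway, and 6 genes associated with hypoxia. They were taken from a list of gene names, which was drawn up with earlier results of these data known, and each was read from the array probe set that carries that symbol alone and has the highest mean signal. Of the 36, 35 had such a probe set and all 35 passed the filter on low signal; the lactate exporter SLC16A3 had no probe set of its own and was not measured. The 35 are among 16020 genes tested. Signals of 33 members were above the array's median on all 56 arrays, HK2 was above it on 55 and PFKM on 47.

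The samples are whole blood of 14 cynomolgus macaques (Macaca fascicularis), drawn into PAXgene tubes, which fix RNA at sampling, at 0, 2, 4 and 8 h. They form 3 arms: 6 animals given LR12, a peptide derived from TREM-like transcript 1 that acts on the TREM-1 receptor of myeloid cells; 4 animals given a peptide control made of the LR12 residues in scrambled order; and 4 animals given vehicle. The series title describes an endotoxin challenge before the peptides, and the labels do not say whether vehicle animals received endotoxin, what the 0 h draw preceded, or give any dose. RNA was hybridised to human HG-U133 Plus 2.0 arrays, so a probe set's signal is set here only against the same probe set in other samples.

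Glycolysis splits glucose into pyruvate in the cytosol, with control at hexokinase and at phosphofructokinase, which the PFKFB enzymes regulate through fructose 2,6-bisphosphate. Pyruvate is then reduced to lactate by lactate dehydrogenase or enters mitochondria through pyruvate dehydrogenase, which PDK enzymes switch off by phosphorylation, while the pentose phosphate pathway diverts glucose 6-phosphate to NADPH and ribose. Neutrophils and activated monocytes depend heavily on glycolysis, and many glycolytic genes are known targets of the hypoxia-inducible factor whose oxygen-regulated subunit is HIF1A.

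All values below are log2 of the deposited intensities, and a change is the difference of 2 group means on that scale with its standard error (SE), tested with limma over all 16020 genes. A member is said to have risen or fallen where the Benjamini-Hochberg adjusted p was below 0.05. The same animals were drawn at every hour, but this main fit takes the arrays as independent. Its SE and p values therefore leave out the pairing by animal. Calls with the animal as a block are given as an alternative. Array medians lay between 12.9 and 23.5 intensity units, and over all genes the median change in the LR12 arm was -0.18, -0.29 and -0.27 at 2, 4 and 8 h against 0 h, so member changes are to be read against those shifts. Peptide control replicate 1 and vehicle replicate 3 stood apart from their arms in several members, and counts and leading values that rest on them are given with and without them. They were singled out by their values in members such as ADM and PDK4, so results without them are no independent test of those genes. The sources used here do not settle whether those 2 animals are labelled as they were treated, and the labels were kept, so each comparison with their arms carries that doubt. The mean log2 difference between the 3′ and 5′ GAPDH control probe sets, a measure of RNA integrity, was 1.21, 0.79, 0.68 and 0.67 at 0, 2, 4 and 8 h in LR12 animals, 1.01, 0.88, 1.13 and 0.70 in peptide control animals and 0.93, 0.82, 0.75 and 0.97 in vehicle animals. GAPDH is itself a member. The same difference for the actin control probe sets was 1.732, 1.477, 1.922 and 1.721 at these hours in LR12 animals. It was 1.335, 1.879, 1.305 and 1.446 in peptide control animals and 1.517, 1.945, 1.795 and 1.823 in vehicle animals. The fall of the GAPDH difference from hour to hour in LR12 animals was thus not seen with actin. The part of either measure in the results was not tested.

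After LR12, the regulators PFKFB2 and PFKFB3, hexokinase HK3, transporter SLC2A3, pyruvate kinase PKM, lactate dehydrogenase LDHA and the vasodilator peptide gene ADM were higher than at 0 h at all 3 later hours, and aldolase ALDOC, enolase ENO2 and lactate dehydrogenase LDHB were lower at all 3. At 2 h, 14 of the 35 members rose and 5 fell, against 10.1% of all genes that rose and 21.9% that fell. At 4 h, 13 rose and 7 fell, where 10.8% of all genes rose and 26% fell. At 8 h, 13 rose and 7 fell, where 8.65% of all genes rose and 20.4% fell. The median member changed by 0.24, 0.17 and 0.10 at 2, 4 and 8 h, above the median of all genes at each hour.

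**Figure D1:**
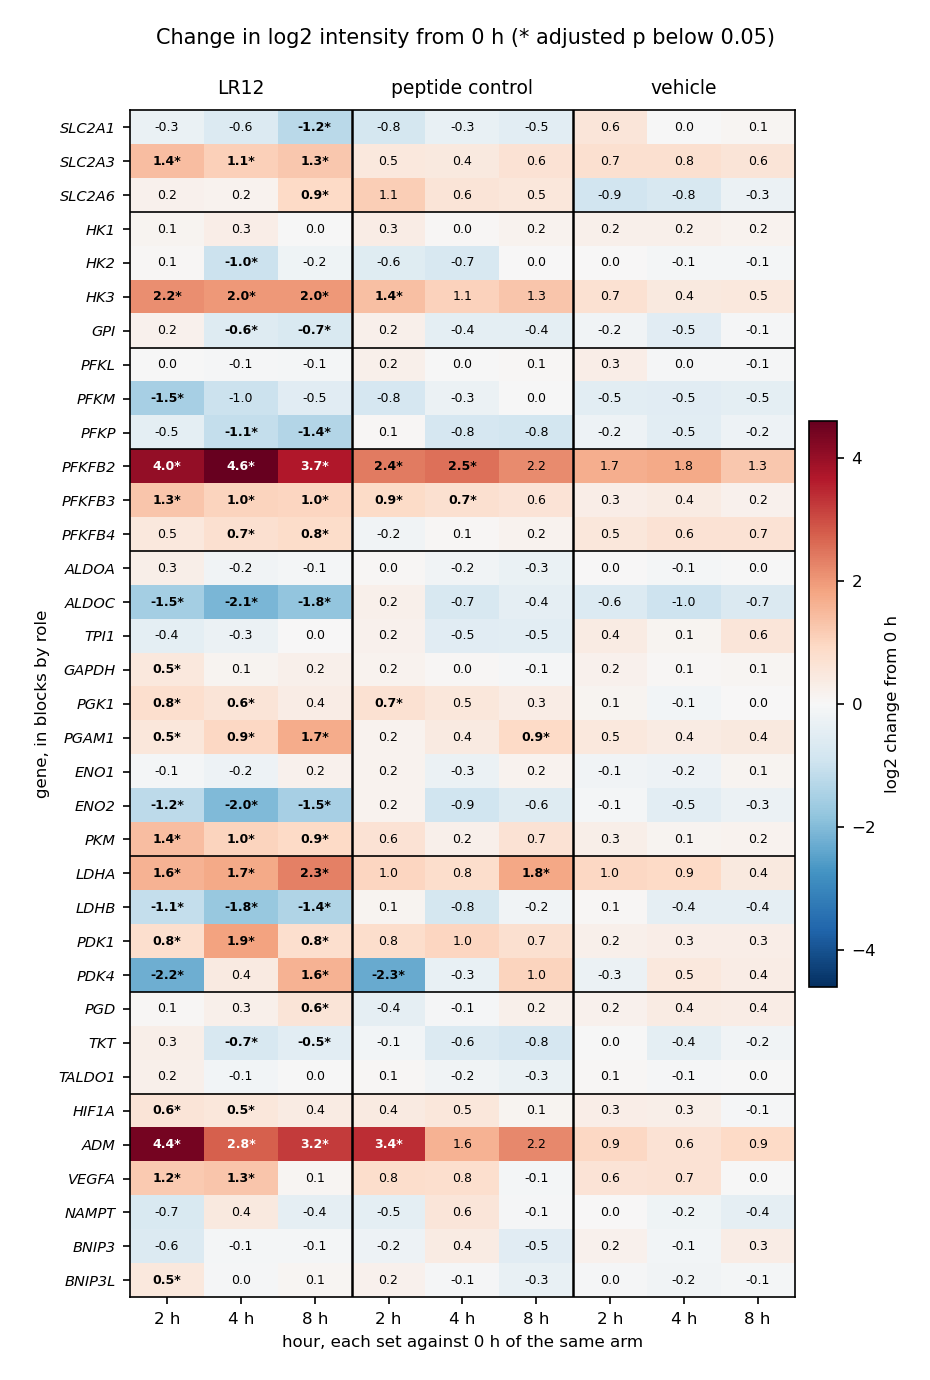
Change from 0 h of each of the 35 measured members at 2, 4 and 8 h (columns) in the LR12, peptide control and vehicle arms, as a log2 difference of group means printed in each cell and coloured from blue (lower than at 0 h) to red (higher); an asterisk marks an adjusted p below 0.05. PFKFB2 and ADM hold the largest rises in the LR12 arm, and no cell of the vehicle arm carries an asterisk.

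Setting each array's median to the same value left 17, 15 and 16 members up and 5, 5 and 5 down at the 3 hours, and put the median change of all genes at -0.12, -0.02 and 0.01 and that of the members at 0.30, 0.44 and 0.38. That step put the shares of all genes at 10.4, 15.4 and 13.7% up and 18.7, 16.8 and 9.83% down, so the background of falls depends on the scaling. With the animal as a block, 17, 13 and 15 members rose and 7, 8 and 7 fell at the 3 hours. Under that block 12.1, 12.8 and 10.9% of all genes rose and 25.8, 29.8 and 25.5% fell. The members gained were ALDOA, BNIP3, NAMPT, PFKFB4 and TALDO1 at 2 h, SLC2A1 at 4 h, and HIF1A and PGK1 at 8 h.

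**Figure D2:**
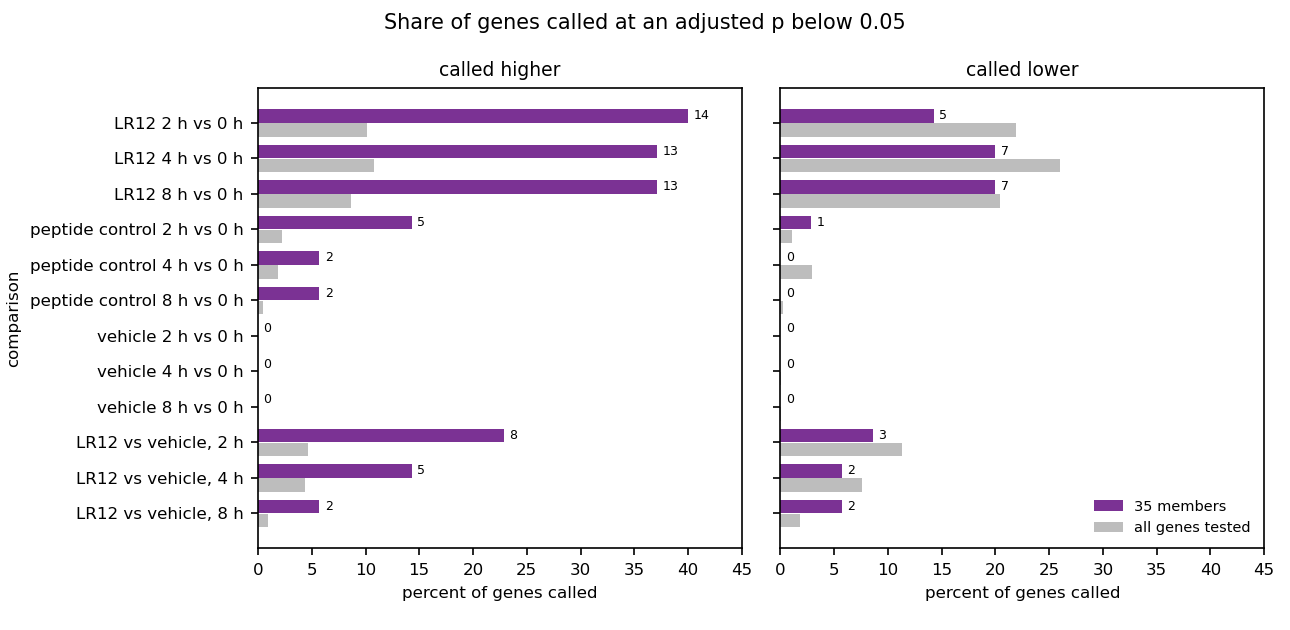
Share of the 35 measured members (purple bars, with the count) and of all 16020 genes tested (grey bars) called higher (left panel) or lower (right panel) from 0 h at each hour in each arm and between LR12 and vehicle animals, in percent (x axis) at an adjusted p below 0.05. In the LR12 arm the share of members that rose was 40% at 2 h against 10.1% of all genes, while 20% of the members fell at 8 h against 20.4% of all genes, a share that depends on the scaling.

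The peptide control arm gave fewer calls. HK3, PFKFB2, PFKFB3, PGK1 and ADM rose at 2 h and PDK4 fell, 5 and 1 of 35 members, where 2.2% of all genes rose and 1.1% fell. At 4 h, PFKFB2 and PFKFB3 rose and no member fell, where 1.9% of all genes rose and 2.95% fell. At 8 h, PGAM1 and LDHA rose and no member fell, where 0.487% of all genes rose and 0.243% fell. Each of these changes had the same sign in all 4 animals. With arrays centred on their median, 4, 7 and 4 members rose and 1, 0 and 0 fell, where 1.82, 4.36 and 1.02% of all genes rose and 0.618, 0.655 and 0.119% fell.

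LDHA, SLC2A6 and VEGFA joined the peptide control rises at 2 h with the animal as a block. At 4 h, HIF1A, HK3, PDK1, PGK1 and VEGFA joined the rises under that block and TKT fell. At 8 h it added rises of ADM, HK3, PFKFB2, PFKFB3 and SLC2A3 and a fall of TKT. Under that block 4.37, 4.82 and 2.38% of all genes rose and 3.26, 10.5 and 1.92% fell at 2, 4 and 8 h. The counts also turn on single animals: without peptide control replicate 1 they were 7, 7 and 8 members at 2, 4 and 8 h, where 5.49, 12.1 and 3.48% of all genes were called, without replicate 2 or replicate 3 they were 0 at each hour, and without replicate 4 they were 0, 0 and 1.

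In vehicle animals, no member passed the limma test, with 0, 0.0125 and 0.0375% of all genes called at 2, 4 and 8 h. At an unadjusted p below 0.05 there were 6, 9 and 4 members at those hours, out of 1008, 1502 and 998 such genes overall. The highest vehicle differences were those of PFKFB2, 1.67 at 2 h (95% confidence interval 0.46 to 2.88, adjusted p = 0.561), 1.76 at 4 h (0.55 to 2.97, adjusted p = 0.322) and 1.25 at 8 h (0.04 to 2.46, adjusted p = 0.776). The PFKFB2 changes of vehicle replicates 1 to 4 were 0.54, 2.19, 3.25 and 0.69 at 2 h. At 4 h they were 0.89, 2.91, 3.33 and -0.09, and at 8 h 0.47, 0.56, 3.76 and 0.22. Replicate 3 was the highest at each hour, and no member was called without it. SLC2A3 at 4 h was the only vehicle call among the members with the animal as a block, where 0.212% of all genes rose and 0.268% fell.

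Of the 3 glucose transporters, SLC2A3 rose at all 3 hours after LR12, SLC2A6 rose at 8 h and SLC2A1 fell at 8 h. SLC2A3 (GLUT3) is the high-affinity transporter of leukocytes and neurons. At 2 h, SLC2A3 lay between 11.28 and 11.57 in the 6 LR12 animals (median 11.46), against 9.75 to 10.55 (median 9.96) at 0 h. SLC2A3 in peptide control animals was 10.44, 11.30, 10.93 and 11.33 at 2 h, against 10.45, 10.24, 10.54 and 10.82 at 0 h in the same order of replicates. SLC2A3 in vehicle animals was 10.91, 10.55, 11.47 and 10.99 at 2 h, against 10.25, 9.81, 10.42 and 10.51 at 0 h. The 2 h values lay above all 0 h values in the LR12 and vehicle arms, and peptide control replicate 1 alone was no higher at 2 h than at 0 h.

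The SLC2A3 change after LR12 was 1.41 at 2 h (SE 0.19, adjusted p = 6.61e-08, higher in 6 of 6 animals), 1.10 at 4 h and 1.25 at 8 h, or 2.67-fold, 2.15-fold and 2.39-fold. In vehicle animals it was 0.73 at 2 h (95% confidence interval 0.28 to 1.19), a change of the same sign in all 4 animals that did not pass the adjusted test (adjusted p = 0.534). A further probe set of SLC2A3 rose by 1.51, 1.54 and 1.49 in the LR12 arm, and a dim one was not called.

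SLC2A1 (GLUT1), the transporter of red cells and of many activated cells, followed another course. At 8 h, SLC2A1 lay between 4.91 and 6.10 in LR12 animals (median 5.71), against 6.38 to 7.20 (median 6.98) at 0 h. SLC2A1 in peptide control animals was 6.50, 6.14, 6.90 and 6.24 at 8 h, against 6.41, 6.997, 7.24 and 7.04 at 0 h. SLC2A1 in vehicle animals was 6.86, 6.69, 7.59 and 6.59 at 8 h, against 7.0003, 6.90, 6.89 and 6.51 at 0 h. Every LR12 animal at 8 h was below every animal of the other arms at that hour.

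The SLC2A1 change at 8 h after LR12 was -1.24 (adjusted p = 0.00041), a 2.36-fold fall seen in 6 of 6 animals. SLC2A6, a lysosomal hexose transporter of myeloid cells, rose by 0.91 (SE 0.31, adjusted p = 0.0197) at 8 h in 5 of 6 animals, a call lost without LR12 replicate 4 (adjusted p = 0.106) or replicate 5. Of 8 erythroid markers, 5 fell at 8 h after LR12, where 20.4% of all genes fell. Their sums of intensities were 14579 to 24131 at 8 h, against 14543 to 33214 at 0 h.

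Among the hexokinases and glucose-6-phosphate isomerase (GPI), HK3 alone rose, at all 3 hours, while HK2 fell at 4 h and GPI fell at 4 and 8 h. HK3 is the hexokinase of myeloid cells and is inhibited by high glucose. At 2 h, HK3 lay between 11.80 and 12.46 in LR12 animals (median 12.10), against 9.57 to 10.16 (median 9.95) at 0 h. HK3 in peptide control animals was 10.20, 11.62, 11.39 and 11.72 at 2 h, against 9.60, 9.54, 9.84 and 10.44 at 0 h. HK3 in vehicle animals was 10.88, 10.13, 12.19 and 10.999 at 2 h, against 10.51, 9.36, 11.15 and 10.41 at 0 h. LR12 animals had higher values than every peptide control animal at 2 h, and they overlapped vehicle animals through vehicle replicate 3.

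The HK3 change after LR12 was 2.15 at 2 h (SE 0.32, adjusted p = 7.09e-07), 2.00 at 4 h and 2.01 at 8 h, or 4.45-fold, 4.01-fold and 4.02-fold. In peptide control animals HK3 rose by 1.38 at 2 h (SE 0.39, adjusted p = 0.034), or by 1.64 without replicate 1.

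HK2 is the inducible hexokinase of muscle and activated cells. At 4 h, HK2 lay between 2.36 and 5.49 in LR12 animals (median 5.01), against 5.12 to 6.02 (median 5.61) at 0 h. HK2 in peptide control animals was 5.84, 4.77, 4.66 and 4.87 at 4 h, against 5.54, 6.17, 5.44 and 5.97 at 0 h. HK2 in vehicle animals was 6.18, 5.98, 4.42 and 5.62 at 4 h, against 5.75, 4.997, 6.09 and 5.65 at 0 h. The lowest LR12 value at 4 h was below the 20th percentile of its array, and the hours overlapped in all 3 arms, although peptide control replicates 2, 3 and 4 were below every 0 h value of theirs.

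The HK2 fall after LR12 at 4 h was -0.996 (SE 0.34, adjusted p = 0.0173), lost with quantile normalization (adjusted p = 0.121), with centred arrays, and without LR12 replicate 4 or replicate 6. GPI, which turns glucose 6-phosphate into fructose 6-phosphate, fell by 0.60 at 4 h (SE 0.16, adjusted p = 0.00244) and by 0.69 at 8 h (adjusted p = 0.00104). The GPI calls were lost with arrays centred on their median (adjusted p = 0.153 at 4 h and 0.0903 at 8 h). HK1, the constitutive hexokinase, differed from 0 h by 0.11, 0.29 and -0.03, none called.

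No phosphofructokinase subunit rose after LR12. PFKM, the muscle subunit, fell at 2 h, PFKP, the platelet-type subunit, fell at 4 and 8 h, and PFKL, the liver-type subunit, was not called at any hour from the set used here, while another of its probe sets fell by 1.22 at 8 h. At 2 h, PFKM lay between 1.22 and 5.38 in LR12 animals (median 4.48), against 3.73 to 6.12 (median 5.49) at 0 h. PFKM in peptide control animals was 3.72, 3.73, 4.36 and 4.73 at 2 h, against 5.46, 4.40, 5.62 and 4.21 at 0 h. PFKM in vehicle animals was 5.14, 5.24, 4.84 and 4.23 at 2 h, against 5.45, 5.77, 5.58 and 4.52 at 0 h. PFKM was lower at 2 h in only 4 of 6 LR12 animals, the hours overlapped in every arm, and 2 of the LR12 values were under the 20th percentile of their arrays.

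The PFKM change was -1.54 (SE 0.48, adjusted p = 0.0103), and it was lost without LR12 replicate 2 (adjusted p = 0.136) or replicate 6. PFKP fell by 1.08 at 4 h (SE 0.27, adjusted p = 0.00113) and by 1.36 at 8 h (adjusted p = 0.000149), in 6 of 6 animals. A dim second PFKP probe set had differences of the other sign that were not called, and the mean of the gene's probe sets gave no call (adjusted p = 0.28 at 4 h and 0.681 at 8 h). Of 7 platelet markers, 3 fell at 4 h and 2 at 8 h after LR12, where 26 and 20.4% of all genes fell. Their sums of intensities were 5289 to 9083 at 4 h, against 7479 to 15621 at 0 h in LR12 animals. Whether they bear on PFKP was not tested.

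All 3 PFKFB enzymes, which set the level of fructose 2,6-bisphosphate, were higher after LR12, and PFKFB2 had the largest change of all members. At 4 h, PFKFB2 lay between 10.41 and 11.36 in LR12 animals (median 11.03), against 5.91 to 7.23 (median 6.33) at 0 h. PFKFB2 in peptide control animals was 8.08, 10.43, 9.83 and 10.51 at 4 h, against 6.96, 6.58, 6.88 and 8.26 at 0 h. PFKFB2 in vehicle animals was 7.63, 9.29, 10.35 and 7.76 at 4 h, against 6.75, 6.38, 7.03 and 7.84 at 0 h. Every LR12 animal at 4 h was above every vehicle animal, and peptide control replicate 1 was the lowest of its arm.

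PFKFB2 rose after LR12 by 4.04 at 2 h (SE 0.49, adjusted p = 1.78e-08), 4.57 at 4 h (adjusted p = 1.89e-09) and 3.69 at 8 h (adjusted p = 4.22e-07), or 16.4-fold, 23.7-fold and 12.9-fold. In peptide control animals it rose by 2.40 at 2 h (SE 0.60, adjusted p = 0.015, 5.29-fold) and 2.54 at 4 h (adjusted p = 0.0156, 5.81-fold), and without replicate 1 by 2.87 and 3.01. A second probe set of PFKFB2 rose by 1.48, 1.74 and 1.57 in the LR12 arm, a smaller size than the set used, and the gene's dimmest sets were not called. PFKFB3, the inducible isoform with the highest kinase activity of the family, rose by 1.27, 1.03 and 0.98 after LR12, with an adjusted p of 1.03e-07 at 2 h, and by 0.88 at 2 h (SE 0.21, adjusted p = 0.0087) and 0.74 at 4 h in peptide control animals.

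At 2 h, PFKFB3 lay between 13.60 and 14.03 in LR12 animals (median 13.74), against 12.17 to 13.03 (median 12.40) at 0 h. PFKFB3 in peptide control animals was 13.06, 13.68, 13.48 and 13.76 at 2 h, against 12.89, 11.97, 12.59 and 12.99 at 0 h. PFKFB3 in vehicle animals was 12.92, 12.93, 13.61 and 13.11 at 2 h, against 12.28, 12.54, 13.32 and 13.15 at 0 h. Values at 2 h were above all values at 0 h in the LR12 and peptide control arms and not in the vehicle arm. PFKFB4, a further isoform, rose by 0.72 at 4 h (SE 0.22, adjusted p = 0.00651) and 0.83 at 8 h (adjusted p = 0.00293) after LR12, and the mean over its probe sets missed the threshold (adjusted p = 0.139 and 0.0589).

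**Figure D3:**
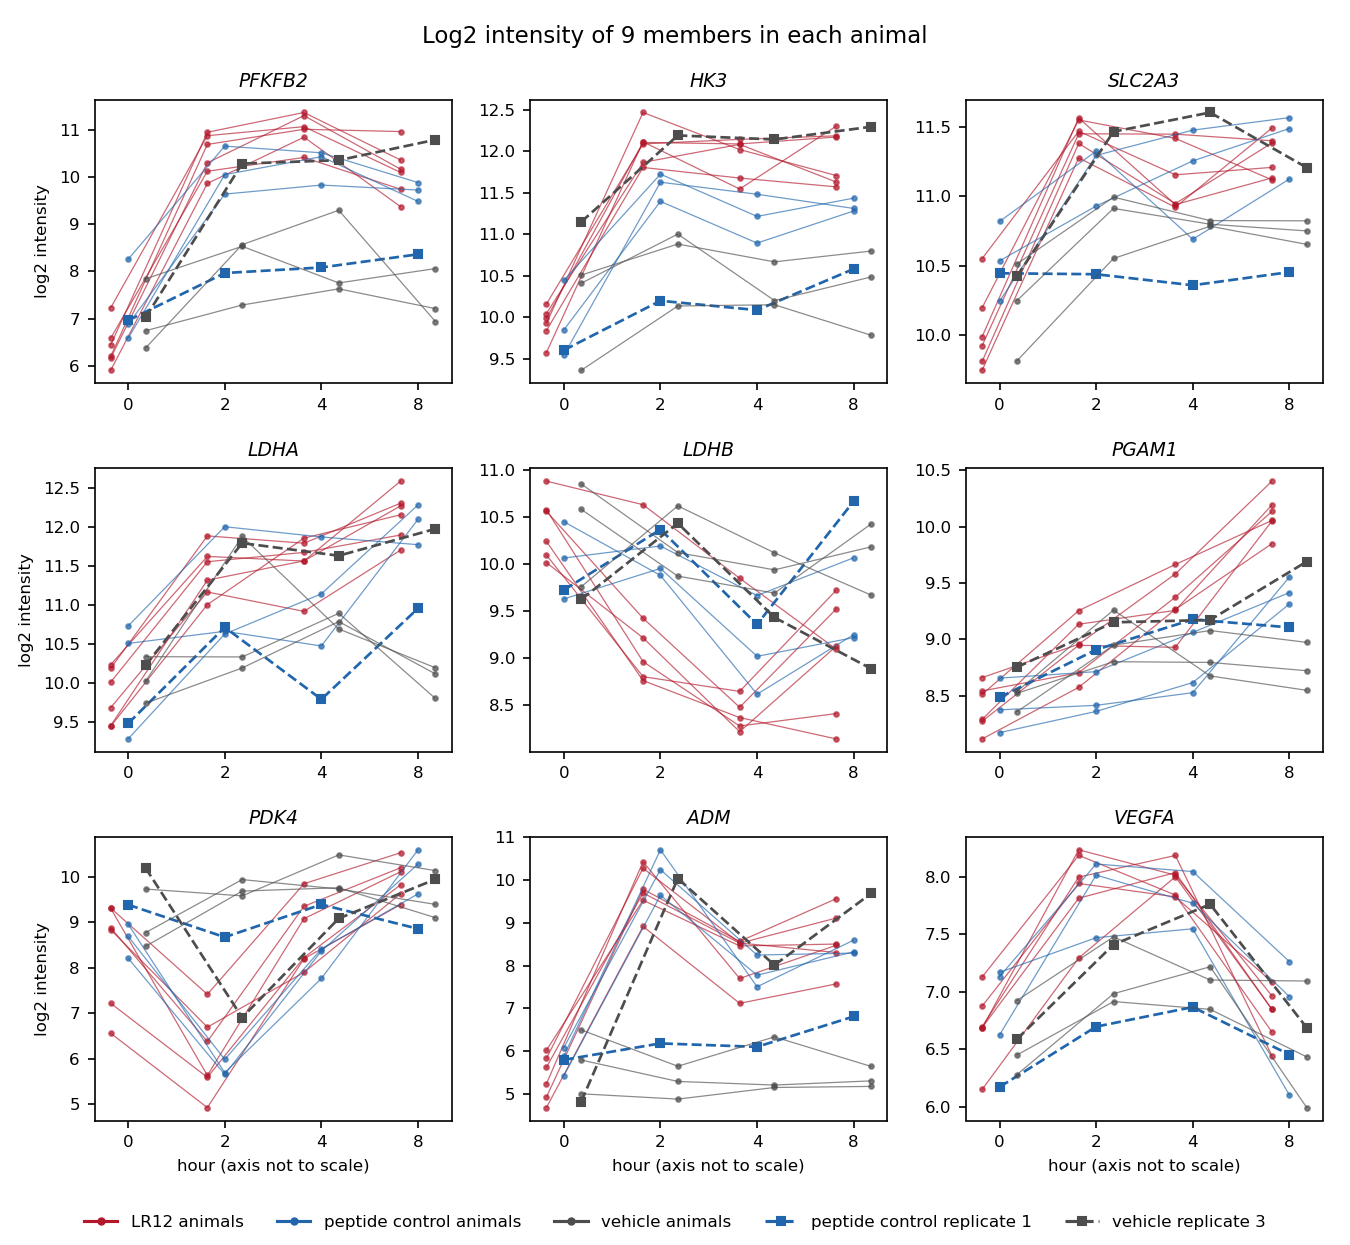
Log2 intensity of 9 members (panels: PFKFB2, HK3, SLC2A3, LDHA, LDHB, PGAM1, PDK4, ADM and VEGFA) by hour in every animal, with 1 line an animal, coloured by arm (LR12, peptide control, vehicle); dashed lines with squares mark peptide control replicate 1 and vehicle replicate 3. ADM at 2 h was 8.92 or higher in every LR12 animal, 6.18 in peptide control replicate 1 and 10.04 in vehicle replicate 3.

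In the middle of the pathway, from aldolase to pyruvate kinase, the 9 members split: GAPDH, PGK1, PGAM1 and PKM rose at 2 h after LR12, PGK1, PGAM1 and PKM at 4 h, and PGAM1 and PKM at 8 h, while ALDOC and ENO2 fell at all 3 hours. PGAM1, phosphoglycerate mutase, had a larger change at each later hour. At 8 h, PGAM1 lay between 9.85 and 10.40 in LR12 animals (median 10.09), against 8.12 to 8.66 (median 8.40) at 0 h. PGAM1 in peptide control animals was 9.11, 9.31, 9.55 and 9.41 at 8 h, against 8.49, 8.17, 8.38 and 8.66 at 0 h. PGAM1 in vehicle animals was 8.72, 8.97, 9.69 and 8.55 at 8 h, against 8.52, 8.36, 8.75 and 8.54 at 0 h. Every LR12 animal at 8 h was above every animal of both other arms.

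PGAM1 rose after LR12 by 0.53 at 2 h (SE 0.16, adjusted p = 0.00952), 0.94 at 4 h (adjusted p = 9.04e-06) and 1.71 at 8 h (adjusted p = 3.87e-10), or 3.28-fold at 8 h. The 2 h call was lost without LR12 replicate 5 (adjusted p = 0.055). PGAM1 rose in peptide control animals by 0.92 at 8 h (SE 0.20, adjusted p = 0.0184).

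ALDOC is the brain-type aldolase and is also a hypoxia-responsive gene. At 4 h, ALDOC lay between 4.50 and 5.68 in LR12 animals (median 5.45), against 6.81 to 8.13 (median 7.42) at 0 h. ALDOC in peptide control animals was 6.44, 5.15, 6.01 and 5.39 at 4 h, against 6.75, 5.80, 7.14 and 6.25 at 0 h. ALDOC in vehicle animals was 6.54, 6.15, 5.64 and 6.15 at 4 h, against 7.79, 7.21, 7.06 and 6.30 at 0 h. The hours did not overlap in the LR12 arm and did in the others.

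ALDOC fell after LR12 by 1.55 at 2 h (SE 0.31, adjusted p = 8.88e-05), 2.11 at 4 h (adjusted p = 5.29e-07) and 1.80 at 8 h (adjusted p = 2.22e-05), or 2.93-fold, 4.33-fold and 3.48-fold. ENO2, the neuronal-type enolase, fell by 1.19, 2.03 and 1.51 (SE 0.34, adjusted p = 0.00482, 5.02e-06 and 0.000617) in the same arm. Neither was called in the other arms.

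PGK1, phosphoglycerate kinase, makes the first ATP of the pathway. At 2 h, PGK1 lay between 13.02 and 13.48 in LR12 animals (median 13.24), against 12.32 to 12.64 (median 12.45) at 0 h. PGK1 in peptide control animals was 12.68, 13.02, 12.94 and 13.17 at 2 h, against 12.63, 11.65, 12.32 and 12.36 at 0 h. PGK1 in vehicle animals was 12.44, 12.17, 13.23 and 12.55 at 2 h, against 12.30, 12.32, 12.70 and 12.56 at 0 h. The hours were apart in the LR12 and peptide control arms and overlapped in the vehicle arm. PGK1 rose after LR12 by 0.78 at 2 h (SE 0.17, adjusted p = 0.000313) and 0.60 at 4 h (adjusted p = 0.00446) and was not called at 8 h (0.35, adjusted p = 0.115), and in peptide control animals it rose by 0.71 at 2 h (SE 0.21, adjusted p = 0.0438), or by 0.93 without replicate 1.

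PKM, pyruvate kinase, forms pyruvate and the last ATP of glycolysis. At 2 h, PKM lay between 10.64 and 11.48 in LR12 animals (median 10.89), against 9.19 to 9.93 (median 9.53) at 0 h. PKM in peptide control animals was 9.76, 10.03, 10.58 and 10.95 at 2 h, against 9.69, 9.19, 9.83 and 10.02 at 0 h. PKM in vehicle animals was 9.74, 9.45, 11.06 and 10.08 at 2 h, against 10.11, 9.61, 9.89 and 9.58 at 0 h. Only in LR12 animals were the hours apart for PKM, which rose by 1.41 at 2 h (SE 0.23, adjusted p = 4.79e-06), 1.01 at 4 h and 0.92 at 8 h, or 2.66-fold at 2 h.

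GAPDH, often used as a reference gene, rose by 0.50 at 2 h after LR12 (SE 0.13, adjusted p = 0.00312, 1.41-fold) and was not called at 4 h (0.13) or 8 h (0.22). ALDOA, TPI1 and ENO1, the main aldolase, triose phosphate isomerase and the ubiquitous enolase, were not called at any hour from the sets used here, with differences between -0.45 and 0.27. Both other ALDOA probe sets rose at 2 h (0.37 and 0.76), and one of them rose at 4 h (0.39) and at 8 h (0.66), against 0.27, -0.16 and -0.09 of the set used, so the reading of ALDOA depends on the probe set. Another ENO1 probe set was called at 8 h (0.54).

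At the fate of pyruvate, LDHA rose and LDHB fell at all 3 hours after LR12. LDHA encodes the muscle-type subunit of lactate dehydrogenase and LDHB the heart-type subunit. At 8 h, LDHA lay between 11.71 and 12.59 in LR12 animals (median 12.22), against 9.45 to 10.24 (median 9.85) at 0 h. LDHA in peptide control animals was 10.96, 12.29, 12.10 and 11.78 at 8 h, against 9.48, 9.28, 10.51 and 10.73 at 0 h. LDHA in vehicle animals was 9.80, 10.12, 11.98 and 10.20 at 8 h, against 10.34, 9.74, 10.23 and 10.02 at 0 h. The hours were apart in the LR12 and peptide control arms, and among vehicle animals only replicate 3 was above all 0 h values.

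LDHA rose after LR12 by 1.59 at 2 h (SE 0.32, adjusted p = 9.72e-05), 1.73 at 4 h (adjusted p = 2.39e-05) and 2.32 at 8 h (adjusted p = 6.6e-07), or 4.99-fold at 8 h. LDHA rose in peptide control animals by 1.78 at 8 h (SE 0.39, adjusted p = 0.021, 3.43-fold). LDHB fell after LR12 by 1.10 at 2 h (SE 0.30, adjusted p = 0.0032), 1.76 at 4 h (adjusted p = 6.48e-06) and 1.40 at 8 h (adjusted p = 0.00037), and its second probe set fell by 1.58, 2.06 and 1.57.

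At 4 h, LDHB lay between 8.22 and 9.85 in LR12 animals (median 8.42), against 10.02 to 10.89 (median 10.40) at 0 h. LDHB in peptide control animals was 9.36, 9.67, 8.62 and 9.02 at 4 h, against 9.73, 10.07, 10.45 and 9.63 at 0 h. LDHB in vehicle animals was 9.94, 9.69, 9.43 and 10.12 at 4 h, against 10.86, 10.59, 9.63 and 9.76 at 0 h. Only LR12 animals had LDHB below all their 0 h values at 4 h in every animal. T cell markers were also lower at 4 h after LR12: 9 of 9 fell, where 26% of all genes fell. Their sums of intensities were 885 to 2918 at 4 h, against 6272 to 9554 at 0 h.

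PDK4, a kinase that switches off pyruvate dehydrogenase and is induced by fasting and fatty acids, fell first and was higher later. At 2 h, PDK4 lay between 4.92 and 7.42 in LR12 animals (median 6.01), against 6.56 to 9.32 (median 8.86) at 0 h. PDK4 in peptide control animals was 8.68, 5.69, 5.66 and 5.99 at 2 h, against 9.39, 8.96, 8.21 and 8.70 at 0 h. PDK4 in vehicle animals was 9.94, 9.69, 6.91 and 9.59 at 2 h, against 8.78, 8.47, 10.20 and 9.74 at 0 h. Vehicle replicate 3 was the lowest vehicle animal at 2 h, and peptide control replicate 1 was the highest animal of its arm.

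PDK4 fell by 2.25 at 2 h after LR12 (SE 0.49, adjusted p = 0.000294, 4.75-fold) and by 2.31 in peptide control animals (SE 0.60, adjusted p = 0.0183, 4.97-fold), a change of -2.85 without replicate 1. The 2 other PDK4 probe sets differed from 0 h after LR12 by -0.90 and -0.83 at 2 h, and by 0.63 and 1.05 at 8 h, with no call. The mean over its probe sets kept the LR12 call at 2 h (adjusted p = 0.00728) and lost the peptide control call. In LR12 animals PDK4 was not called at 4 h (0.42, adjusted p = 0.552) and rose by 1.60 at 8 h (adjusted p = 0.0108, 3.03-fold), a call lost without LR12 replicate 1 (adjusted p = 0.0533). PDK1, the kinase of the same step that hypoxia-inducible factor induces, rose by 0.78, 1.86 and 0.78 at 2, 4 and 8 h (SE 0.30, adjusted p = 0.0373, 2.55e-06 and 0.0397). The PDK1 calls at 2 and 8 h were lost without LR12 replicate 1, 2 or 5 in turn, at 2 h also without replicate 3 (adjusted p = 0.123), at 8 h also without replicate 4, and at 8 h with the mean over probe sets (adjusted p = 0.54).

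In the pentose phosphate group, no member was called at 2 h, TKT fell at 4 and 8 h, and PGD rose at 8 h after LR12. TKT, transketolase, rearranges sugars in the reversible branch. At 4 h, TKT lay between 12.18 and 12.88 in LR12 animals (median 12.56), against 13.02 to 13.56 (median 13.31) at 0 h. TKT in peptide control animals was 13.48, 12.15, 12.62 and 12.15 at 4 h, against 12.99, 13.72, 13.08 and 13.19 at 0 h. TKT in vehicle animals was 12.88, 13.03, 12.02 and 12.76 at 4 h, against 12.79, 12.85, 13.52 and 13.31 at 0 h. The hours were apart in the LR12 arm, and peptide control replicate 1 was the only animal of its arm with a higher value at 4 h.

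TKT fell after LR12 by 0.74 at 4 h (SE 0.18, adjusted p = 0.000923) and by 0.47 at 8 h (adjusted p = 0.0415), and the mean over its probe sets gave no call (adjusted p = 0.672 and 0.593). The 8 h call was also lost with arrays centred on their median and without LR12 replicate 1, 2, 3, 4 or 6 in turn.

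PGD, which makes NADPH and pentose in the oxidative branch, lay between 11.44 and 11.95 in LR12 animals at 8 h (median 11.57), against 10.16 to 11.53 (median 11.10) at 0 h. PGD in peptide control animals was 10.74, 11.39, 11.64 and 10.58 at 8 h, against 10.90, 11.28, 10.96 and 10.28 at 0 h. PGD in vehicle animals was 10.91, 10.57, 11.22 and 11.15 at 8 h, against 10.54, 10.07, 10.82 and 11.002 at 0 h. PGD overlapped between the hours in every arm, and its LR12 change of 0.61 (SE 0.20, adjusted p = 0.0148) had its sign in 5 of 6 animals. The PGD call was lost with quantile normalization and without LR12 replicate 1, 3 or 5 in turn, and the mean over its probe sets had the other sign and no call. TALDO1, transaldolase, was not called (0.24, -0.12 and -0.01).

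Of the 6 hypoxia-associated genes, ADM, VEGFA, HIF1A and BNIP3L rose at 2 h after LR12, the first 3 also at 4 h, and ADM alone at 8 h, by the probe set used for each gene. ADM encodes adrenomedullin, a vasodilator peptide raised in septic shock and a classical target of hypoxia-inducible factor. At 2 h, ADM lay between 8.92 and 10.43 in LR12 animals (median 9.74), against 4.68 to 6.02 (median 5.43) at 0 h. ADM in peptide control animals was 6.18, 9.65, 10.71 and 10.25 at 2 h, against 5.80, 5.43, 5.89 and 6.09 at 0 h. ADM in vehicle animals was 5.65, 4.88, 10.04 and 5.29 at 2 h, against 6.50, 5.005, 4.82 and 5.79 at 0 h. Vehicle replicate 3 lay within the LR12 range at 2 h, and peptide control replicate 1 was the lowest of its arm.

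ADM rose after LR12 by 4.39 at 2 h (SE 0.66, adjusted p = 1.36e-06), 2.76 at 4 h (adjusted p = 0.000794) and 3.20 at 8 h (adjusted p = 0.000275), or 20.9-fold, 6.79-fold and 9.21-fold. In peptide control animals ADM rose by 3.40 at 2 h (SE 0.81, adjusted p = 0.0106, 10.5-fold), and by 4.40 without replicate 1 (adjusted p = 0.000496).

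VEGFA, the vascular growth factor, rose after LR12 by 1.21 at 2 h (SE 0.23, adjusted p = 4.51e-05) and 1.28 at 4 h (adjusted p = 1.53e-05), and by 8 h it differed from 0 h by 0.10, with no call. At 4 h, VEGFA lay between 7.83 and 8.19 in LR12 animals (median 8.01), against 6.15 to 7.13 (median 6.69) at 0 h. HIF1A itself rose by 0.60 at 2 h (SE 0.16, adjusted p = 0.00215) and 0.53 at 4 h (adjusted p = 0.00566). BNIP3L, a mitophagy receptor also high in maturing red cells, rose by 0.47 at 2 h (SE 0.16, adjusted p = 0.023), a call lost with quantile normalization (adjusted p = 0.253) and without LR12 replicate 1, 2, 3 or 4 in turn. The other BNIP3L probe set rose by 0.67, 0.73 and 1.06 at the 3 hours, against 0.47, -0.04 and 0.09 of the set used, so its reading depends on the probe set. Its relative BNIP3 and NAMPT, the enzyme that recycles nicotinamide to NAD, were not called at any hour from the sets used here, with 2 h differences of -0.64 and -0.69. The other NAMPT probe sets differed by -0.75 to 0.52 at 2 h, and 1 of them was called lower, so the reading of NAMPT depends on the probe set.

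Between hours within the LR12 arm, PDK1, PDK4 and NAMPT rose at 4 h against 2 h, and HK2, GPI, ALDOA, TKT, TALDO1 and BNIP3L fell, 3 and 6 of 35, where 5.3% of all genes rose and 6.22% fell. With arrays centred on their median, PGAM1, PDK1, PDK4 and NAMPT rose and only GPI and TKT fell, where 7.95% of all genes rose and 2.76% fell, and with quantile normalization 3 rose and 3 fell. PDK4 had the largest of these steps, 2.66 (SE 0.49, adjusted p = 0.000107), followed by NAMPT with 1.13 (adjusted p = 0.00477). The NAMPT step was lost with the mean over its kept probe sets (adjusted p = 0.262). At 8 h against 4 h, PGAM1 rose by 0.77 (adjusted p = 0.0017) while VEGFA fell by 1.18 (adjusted p = 0.000665) and PDK1 fell by 1.07 (adjusted p = 0.0193), where 3.22% of all genes rose and 2.45% fell. In peptide control animals at 4 h against 2 h, PDK4 rose by 1.99 (SE 0.60, adjusted p = 0.0418) and GPI fell by 0.67 (adjusted p = 0.0362), where 1.95% of all genes rose and 2.95% fell. Centring the arrays there left PDK4 and NAMPT up and no member down, where 3.35% of all genes rose and 0.655% fell. Of the 4 peptide control arrays, 1 at 2 h and 4 at 4 h had a higher level of control probe sets. The PDK4 and GPI calls of this step were lost with that level as a covariate, and the PDK4 call also with the mean over its probe sets.

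No member was called at 8 h against 4 h in peptide control animals, where 0.112% of all genes were called and 6 members had an unadjusted p below 0.05. The vehicle steps gave no member either, with 0% of all genes called at 4 h against 2 h and 0% at 8 h against 4 h, and 0 and 2 members at an unadjusted p below 0.05. With the animal as a block, ADM, ENO2, GAPDH and PGAM1 joined the calls at 4 h against 2 h in the LR12 arm, ENO1 and NAMPT those at 8 h against 4 h, and ALDOC, ENO2, LDHB, NAMPT and PFKP those at 4 h against 2 h in the peptide control arm. Under that block 7.95, 6.12 and 4.18% of all genes rose and 10.2, 4.23 and 8.22% fell in these steps, in that order. The LR12 count at 4 h against 2 h was 4 without LR12 replicate 2 and 4 without replicate 4, and the peptide control count was 3 without replicate 1 and 0 without replicate 2, 3 or 4.

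LR12 animals were then set against vehicle animals at each hour. At 2 h, HK3, GPI, PFKFB2, PFKFB3, PGK1, PKM, ADM and VEGFA were higher in LR12 animals and LDHB, PDK4 and NAMPT lower, 8 and 3 of 35, where 4.61% of all genes were higher and 11.3% lower. At 4 h, HK3, PFKFB2, PGK1, PDK1 and VEGFA were higher and ENO2 and LDHB lower, where 4.36% of all genes were higher and 7.56% lower. At 8 h, PGAM1 and LDHA were higher and SLC2A1 and PFKP lower, where 0.93% of all genes were higher and 1.79% lower. At 0 h no member was called, where 0.0187% of all genes were called and 1 member had an unadjusted p below 0.05.

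The largest of these differences at 2 h were ADM, 3.31 higher in LR12 animals (SE 0.74, adjusted p = 0.0016, 9.91-fold), and PDK4, 2.93 lower on the log2 scale, a difference of -2.93 (SE 0.55, adjusted p = 0.000243, 7.6-fold). PFKFB2 was 1.80 higher at 2 h (SE 0.55, adjusted p = 0.0194) and 2.24 higher at 4 h (adjusted p = 0.00605, 4.71-fold), with no overlap of the arms at 4 h. At 4 h VEGFA was 0.75 higher (adjusted p = 0.0448), also without overlap, since vehicle animals read 7.10, 7.22, 7.76 and 6.85. At 8 h PGAM1 was 1.13 higher (SE 0.18, adjusted p = 0.00033, 2.19-fold) and SLC2A1 was lower, a difference of -1.29 (SE 0.30, adjusted p = 0.0128, 2.44-fold), both without overlap. The SLC2A1 call was lost with the mean over its probe sets (adjusted p = 0.155) and without vehicle replicate 1. Its second probe set differed from 0 h at 8 h by -1.83 in LR12 animals and -0.82 in vehicle animals, with no call. LDHA at 8 h was 1.63 higher (SE 0.36, adjusted p = 0.0091, 3.1-fold), with vehicle replicate 3 inside the LR12 range.

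With arrays centred on their median, the LR12 calls against vehicle were 8 up and 1 down at 2 h, without LDHB, NAMPT and VEGFA and with ALDOA added. At 4 h that centring left 3 up and 2 down, without PDK1 and VEGFA, and at 8 h 2 up and 1 down, without PFKP. After centring, 4.18, 3.15 and 0.562% of all genes were higher in LR12 animals and 8.51, 6.95 and 0.712% lower. With the animal as a block, SLC2A1 was added at 2 h, ADM at 4 h, and HK3, PFKFB2 and PGD at 8 h, and no call was lost. Under that block 5.1, 4.94 and 1.55% of all genes were higher and 12.7, 9.01 and 3.1% lower.

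One vehicle animal bears on these counts. Without vehicle replicate 3, the LR12 arm differed from vehicle in 14 members at 2 h, 13 at 4 h and 14 at 8 h, with 10, 7 and 4 of them shared with the calls over all animals, and the share of all genes called was then 22, 23.2 and 16.7%. ADM at 2 h was then 4.50 higher in LR12 animals (SE 0.55, adjusted p = 3.59e-08), PDK4 -3.63 (adjusted p = 2.48e-06) and LDHA at 8 h 2.12 higher (adjusted p = 7.02e-05). Vehicle replicate 3 was singled out by its values in members such as ADM and PDK4. The smaller p values without it are thus no independent support. The counts were lower without each other vehicle animal: 3, 1 and 1 without replicate 1, 4, 2 and 2 without replicate 2, and 4, 0 and 3 without replicate 4. A smaller arm also makes calls harder, so these lower counts do not show that those animals act in a direction. Leaving out LR12 replicate 1 gave 14, 6 and 6.

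**Figure D4:**
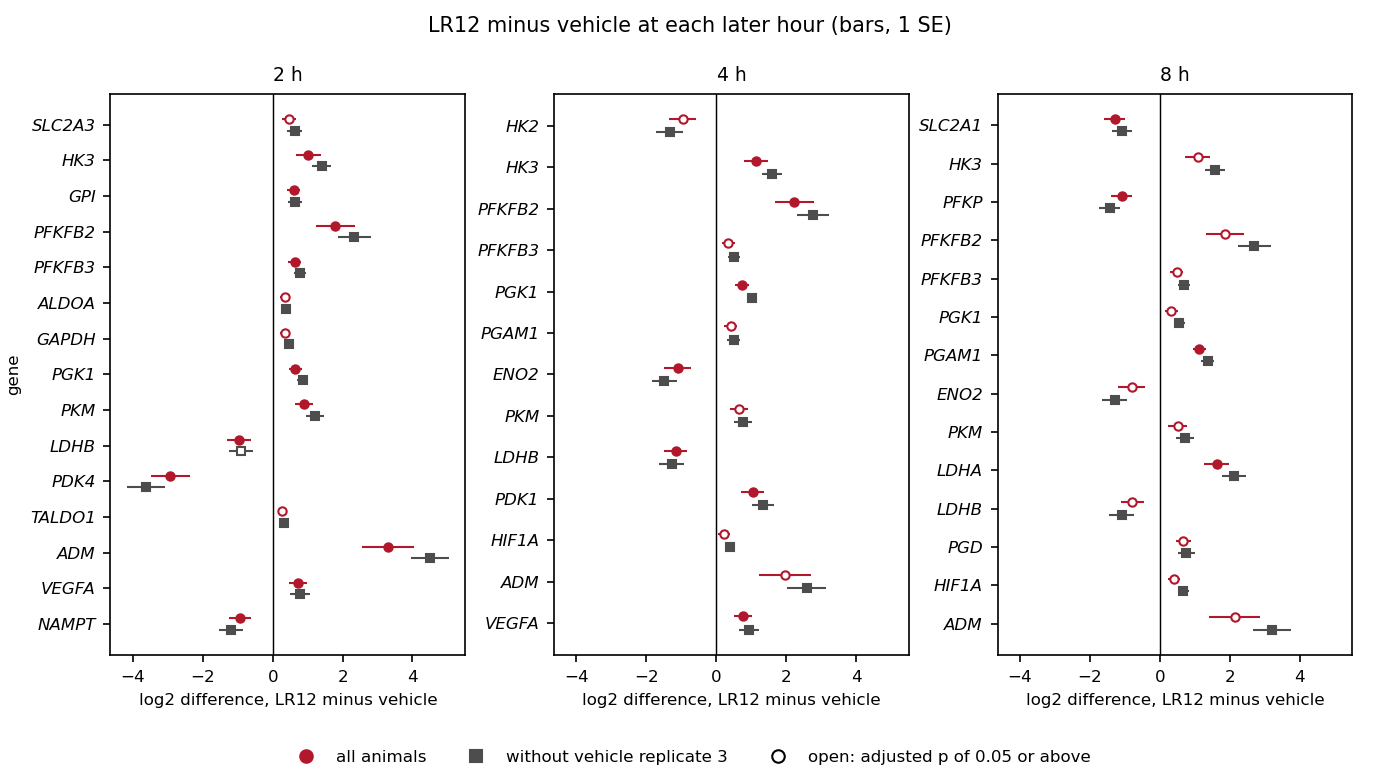
Difference of LR12 minus vehicle at 2, 4 and 8 h in log2 intensity (x axis) for the members called between these arms in either setting, over all animals (red circles) and without vehicle replicate 3 (grey squares); points are differences of group means, bars are 1 SE, and filled points had an adjusted p below 0.05. ADM at 2 h stood at 3.31 over all animals and 4.50 without that animal, and PDK4 at -2.93 and -3.63. The animal was singled out by its values in such members, so the grey squares are no independent test.

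No member was called between LR12 and peptide control animals. At 0, 2, 4 and 8 h, 0, 2.95, 1.35 and 0.0187% of all genes were called and 2, 8, 8 and 7 members had an unadjusted p below 0.05. The intervals show what the test leaves: HK3 was 0.84 higher in LR12 animals at 2 h (95% confidence interval 0.13 to 1.55, adjusted p = 0.184) and 1.01 higher at 4 h (0.30 to 1.72, adjusted p = 0.131), with no overlap of the arms at either hour. PFKFB2 differed by 0.89 at 2 h (-0.22 to 1.99), ADM by 0.58 at 2 h (-0.91 to 2.07) and LDHA by 0.38 at 8 h (-0.34 to 1.09). PGAM1 differed by 0.77 at 8 h (0.40 to 1.13, adjusted p = 0.122) and SLC2A1 by -0.80 (-1.40 to -0.21, adjusted p = 0.333), and for both genes the arms did not overlap.

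PGD was the member nearest to a call between the 2 peptides, 0.67 higher in LR12 animals at 2 h (95% confidence interval 0.23 to 1.10, adjusted p = 0.077), between 10.93 and 11.33 in LR12 animals (median 11.04), against 10.80, 10.46, 10.75 and 9.69 in peptide control animals. PGD passed at 2 h with the animal as a block and was the only member to do so, where 0.381% of all genes were higher in LR12 animals and 4.15% lower. A second PGD probe set differed from 0 h at 2 h by 0.02 in LR12 animals and 0.65 in peptide control animals, with no call. The set used differed by 0.07 and -0.43, so the reading of PGD between the peptides depends on the probe set. Leaving out LR12 replicate 1 gave 3 calls at 2 h and 1 at 8 h, and leaving out peptide control replicate 1 gave none.

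Between peptide control and vehicle animals no member was called either, with 0, 0, 0.00624 and 0% of all genes called at 0, 2, 4 and 8 h and 0, 6, 3 and 4 members at an unadjusted p below 0.05. At 2 h, ADM was 2.73 higher in peptide control animals (95% confidence interval 1.10 to 4.36, adjusted p = 0.2) and PDK4 lower, a difference of -2.53 (-3.73 to -1.33, adjusted p = 0.0946). Without vehicle replicate 3, ADM at 2 h was 3.92 higher (adjusted p = 3.42e-05) and PDK4 differed by -3.24 (adjusted p = 0.000417). Without peptide control replicate 1, ADM was 3.73 higher (adjusted p = 0.00395) and PDK4 differed by -3.25 (adjusted p = 0.000723). Without both animals, a setting chosen after seeing the data, ADM was 4.93 higher (adjusted p = 1.16e-11) and PDK4 differed by -3.96 (adjusted p = 5.41e-07).

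The counts moved with these animals as well. Without peptide control replicate 1 there were 4, 0 and 0 calls at 2, 4 and 8 h, where 2.39, 1.6 and 0.331% of all genes were called. Leaving out vehicle replicate 3 gave 4, 2 and 3, where 3.98, 6.42 and 1.38% of all genes were called. Without both there were 10, 9 and 12, where 9.46, 14.1 and 9.84% of all genes were called.

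Last, the changes from 0 h were compared between arms. The main fit takes the arrays as independent, so its SE and p values leave out the pairing by animal. PFKFB3 at 2 h was the only member called, with a change of 1.27 in LR12 animals, against 0.32 in vehicle animals, where 0.78% of all genes had a larger and 1.39% a smaller change in the LR12 arm. That difference was 0.947 (SE 0.27, 95% confidence interval 0.41 to 1.48, adjusted p = 0.0478), and the animals' own changes did not overlap between the arms. It was lost in 15 of 20 other settings, among them arrays centred on their median (adjusted p = 0.0579), and kept with the animal as a block (adjusted p = 0.00598).

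At 4 and 8 h no member was called for its change between LR12 and vehicle animals, where 0.218 and 0% of all genes were called and 11 and 15 members had an unadjusted p below 0.05. With the animal as a block, 7 members were called at 2 h (ADM, HK3, PDK4, PFKFB2, PGK1 and PKM beside PFKFB3), 6 at 4 h and 5 at 8 h, where 2.81, 2.27 and 0.662% of all genes had a larger change in the LR12 arm and 7.72, 4.76 and 1.08% a smaller one. Without vehicle replicate 3 there were also 7, 6 and 5, where 6.52, 6.5 and 1.89% of all genes were called, and ADM at 2 h then differed by 4.88 (adjusted p = 4.34e-05), against 3.45 over all animals (95% confidence interval 1.34 to 5.56, adjusted p = 0.0618).

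The changes of LR12 and peptide control animals gave no member at any hour, with 0, 0 and 0% of all genes called at 2, 4 and 8 h, and 6, 7 and 4 members had an unadjusted p below 0.05. Among those was PFKFB2 at 4 h, a difference of 2.03 (95% confidence interval 0.47 to 3.59, adjusted p = 0.628). With the animal as a block SLC2A3 and ALDOC were called at 2 h, with differences of 0.93 (0.34 to 1.52) and -1.77 (-2.74 to -0.79). Under that block 0.0874% of all genes had a larger change in the LR12 arm and 1.09% a smaller one. The changes of peptide control and vehicle animals gave none, with 0, 0 and 0% of all genes called, 4, 2 and 2 members at an unadjusted p below 0.05, and 1 call at 2 h without vehicle replicate 3, that of ADM.

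Markers of cell types were also counted in the LR12 arm, where 10.1, 10.8 and 8.65% of all genes rose at 2, 4 and 8 h. At these hours 21.9, 26 and 20.4% of all genes fell. Of 10 neutrophil markers, 7 rose at 2 h, and the sum of their intensities was 11328 to 16880 at 2 h, against 3565 to 8446 at 0 h. CSF3R was the brightest of the 10, with a mean log2 of 12.58 against 10.22 for the next, PROK2, so it weighs most in that sum. Of 9 T cell markers, 7 fell at 2 h and 9 at 4 and 8 h, with sums of 1087 to 2733 at 8 h, against 6272 to 9554 at 0 h. Of 9 B cell markers, 8, 4 and 3 fell at 2, 4 and 8 h, of 8 natural killer cell markers 3, 5 and 5 fell and none rose, and of 8 monocyte markers 3, 5 and 4 rose and 4, 3 and 1 fell. The natural killer sum, in which NKG7 is one of the 8, nevertheless had medians of 1782, 2292, 3262 and 1212 at 0, 2, 4 and 8 h, and NKG7 differed from 0 h by 0.92 at 2 h and 1.60 at 4 h, not called (adjusted p = 0.345 and 0.0644).

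The neutrophil sums had medians of 7462, 12690, 16743 and 16767 at 0, 2, 4 and 8 h in LR12 animals, 8185, 11071, 13200 and 12824 in peptide control animals, and 7322, 10505, 10947 and 8637 in vehicle animals. The T cell sums had medians of 7144, 3194, 1468 and 1957 in LR12 animals, 5049, 6420, 1913 and 2885 in peptide control animals, and 6920, 5695, 4363 and 4890 in vehicle animals. T cell sums were thus lower at 4 and 8 h than at 0 h in all 3 arms by their medians. In whole blood, fewer cells of a type and less RNA per cell cannot be told apart, and the part of these markers in the member changes was not tested.

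Genes of neighbouring pathways, listed with earlier results of these data known, are set here against the shares of all genes after LR12, which were 10.1, 10.8 and 8.65% up and 21.9, 26 and 20.4% down at 2, 4 and 8 h. Of 12 glycogen genes, 10 rose at 2 h and none fell, 7 rose and 2 fell at 4 h, and 6 rose at 8 h, with median changes of 1.08, 0.87 and 0.55 against the -0.18, -0.29 and -0.27 of all genes. After centring the arrays 10, 9 and 6 of them rose and none fell. PPP1R3D, which directs protein phosphatase to glycogen, rose by 2.89 at 2 h (SE 0.35, adjusted p = 1.27e-08), GYG1, the primer of new glycogen, by 2.75 (SE 0.42, adjusted p = 1.16e-06) and GBE1, the branching enzyme, by 1.82 (SE 0.39, adjusted p = 0.000253). In peptide control animals PPP1R3D rose by 1.87 at 2 h (adjusted p = 0.00706), and PPP1R3D, GYG1 and GBE1 differed from 0 h by 1.22, 0.94 and 0.91 in vehicle animals, none called.

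Of 15 citrate cycle genes, 3 rose and 7 fell at 2 h, none rose and 6 fell at 4 h, and 1 rose and 6 fell at 8 h after LR12, with medians of -0.30, -0.34 and -0.43 against -0.18, -0.29 and -0.27 of all genes, and after centring the arrays 3 rose and 6 fell, then 1 and 5, then 1 and 2. SUCLG2, a subunit of succinate-CoA ligase, fell by 2.37 at 4 h (SE 0.45, adjusted p = 3.4e-05), IDH3B, of the NAD-linked isocitrate dehydrogenase, by 1.75 (adjusted p = 2.4e-05), and IDH2, its NADP-linked mitochondrial relative, by 1.74 (adjusted p = 6.03e-08). IDH2 also fell in peptide control animals at 4 h, by 0.97 (adjusted p = 0.0319). Of 11 genes of pyruvate dehydrogenase and pyruvate import, 1 rose and 4 fell at 2 h, 5 fell at 4 h, and 1 rose and 2 fell at 8 h, with medians of -0.22, -0.47 and -0.45. Among them PDK3, another kinase of the complex, fell by 1.81 at 8 h (SE 0.38, adjusted p = 0.000313), MPC1, part of the mitochondrial pyruvate carrier, rose by 1.43 at 8 h (adjusted p = 0.0082), and DLAT, the acetyltransferase of the complex, fell by 1.23 at 2 h (adjusted p = 0.00134).

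Of 17 other glycolysis genes, 3, 3 and 2 rose and 5, 5 and 3 fell at 2, 4 and 8 h after LR12, with medians of 0.10, -0.34 and 0.03, counts near the shares of all genes. FBP1, the fructose bisphosphatase of gluconeogenesis, rose by 2.25 at 2 h (SE 0.38, adjusted p = 6.93e-06), SLC2A5, the fructose transporter, rose by 1.56 (adjusted p = 0.00104), and PKLR, the pyruvate kinase of liver and red cells, fell by 1.89 at 4 h (adjusted p = 1.07e-07). Of 9 other pentose phosphate genes, 2 rose at each hour and 3, 3 and 2 fell, with medians of -0.18, 0.06 and 0.23. RBKS, ribokinase, rose by 3.79 at 4 h (SE 0.48, adjusted p = 4.92e-08), TKTL1, a transketolase relative, fell by 4.13 (SE 0.62, adjusted p = 8.99e-07), and PRPS1, which makes phosphoribosyl pyrophosphate, fell by 1.85 (adjusted p = 4.92e-06). At 4 h all 3 were also called in peptide control animals, with changes of 2.06 for RBKS, -3.36 for TKTL1 and -1.35 for PRPS1.

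Of 27 other subunits, oxygen sensors and targets of hypoxia-inducible factor, 3, 6 and 7 rose and 9, 4 and 3 fell at 2, 4 and 8 h after LR12, with medians of -0.19, -0.05 and 0.18, where 10.1, 10.8 and 8.65% of all genes rose and 21.9, 26 and 20.4% fell. RORA, a nuclear receptor also abundant in T cells, fell by 3.96 at 4 h (SE 0.43, adjusted p = 1.89e-09), HMOX1, heme oxygenase, rose by 3.37 (SE 0.67, adjusted p = 7.91e-05), and EPAS1, the oxygen-regulated subunit of the second factor, rose by 2.68 at 8 h (SE 0.79, adjusted p = 0.00851). Of these, HMOX1 alone was called in peptide control animals, at 4 h, where it rose by 2.73 (adjusted p = 0.0429).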

How the data were processed

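The values are intensities deposited by the authors, 1 per probe set and array, on a linear scale; per the submitters' processing notes they come from MAS5 (version not given); the scaling target and annotation are not given in the sources used here. Of 54675 probe sets, 41097 carried 1 gene symbol in the platform annotation, 1801 several and 11777 none. The log2 of the intensities was taken with no further normalization. A gene was kept if its probe set was above the array median on at least 4 of 56 arrays, and the probe set with the highest mean log2 value stood for the gene, which left 16020 of 19775 genes.

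limma 3.58.1 (R 4.3.3; lmFit, eBayes with trend and robust settings) was fitted to 12 groups of arm and hour over all 56 arrays, and 36 comparisons were made, each adjusted by Benjamini-Hochberg over all genes, two-sided. The same 14 animals were sampled at every hour, per the labels, so hours are paired by animal: deviations from the group means correlated at 0.180 on average within an animal (lowest -0.00867, highest 0.513), against -0.0294 between animals, and 45 of 56 arrays matched best with an array of the same animal. The fit with the animal as a block (duplicateCorrelation, correlation 0.221, statmod 1.5.0) is an alternative. The main fit takes the 56 arrays as independent, and precision is limited by the 14 animals.

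The other alternatives were arrays centred on their median, quantile normalization, an offset of 16 before the log, no filter, a filter of at least 28 arrays, the mean over a gene's kept probe sets, a covariate for the set of 24 arrays with a higher level of control probe sets, no trend or robust moderation, a fit to only the arms compared, and leaving out each animal in turn. That set was spread unevenly: it held 0 of 4 vehicle arrays at 2 h, and 1 of 6 LR12 arrays at 0 h against 3 of 6 at 8 h. The script was tested on simulated data.

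The 36 members and all gene lists were chosen with earlier results of these data known. Per-sample values are given, by role group, for the called member with the largest rise and the one with the largest fall after LR12, and for members called between arms, at most 8 by adjusted p; of other lists, counts and the 3 largest called changes are given. PFKFB3, LDHB and VEGFA at further hours were added after their values were seen.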

Additional observations from a re-analysis of the deposited data

Results flagged for a closer look

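In 180 groups of 4 to 6 animals (an arm at an hour, for 1 member), 13 held a value far from the others of its group by Dixon's gap test, and chance gives such a value in about 1 of 20 groups. Vehicle replicate 3 held 7 of them: ADM at 10.04 at 2 h and 9.69 at 8 h, SLC2A1 at 8.68 at 2 h, SLC2A3 at 11.6 at 4 h, PGK1 at 13.2 at 8 h, PDK4 at 6.91 at 2 h and PFKM at 4.04 at 4 h. PFKM and PDK4 were the lowest of the vehicle animals there and the other values the highest. Peptide control replicate 1 held 2, the highest PDK4 value of its arm at 2 h, 8.68, and the lowest ADM value at 8 h, 6.81. The remaining ones were LDHA at 12.01 in peptide control replicate 4 at 2 h, HK2 at 4.67 in LR12 replicate 1 at 8 h, ALDOC at 4.50 in LR12 replicate 2 at 4 h and LDHA at 10.9 in LR12 replicate 3 at 4 h.

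PFKFB3 is listed for a difference between arms that was itself tested: its change at 2 h was 0.947 larger in LR12 animals than in vehicle animals. What sets these animals apart was not tested, and the sources used here do not settle whether they are labelled as they were treated.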

How the results depend on the processing

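Counts below are members called in either direction. The LR12 counts against 0 h stayed within 1.5 times of their main values in every setting run; leaving out 1 animal gave 16 to 20 at 2 h, 19 to 21 at 4 h and 16 to 19 at 8 h, 4 to 10 at 4 h against 2 h, and 2 to 3 at 8 h against 4 h. Peptide control counts against 0 h moved most: 3 at 2 h with the mean over probe sets; at 4 h 7 with arrays centred, 8 with the replicate block (animal), 4 with quantile normalization, 1 with the mean over probe sets and 1 without trend; at 8 h 4 centred, 8 with the block, 4 with quantile normalization, 4 with the control set as covariate and 0 with only the arms compared. Leaving out 1 animal gave 0 to 7, 0 to 7 and 0 to 8 at these hours. Vehicle animals had 1 call at 4 h with the block. LR12 at 4 h against 2 h gave 5 with the mean over probe sets, and at 8 h against 4 h 5 with the block, 5 with the covariate and 5 with only the arms compared. Peptide control at 4 h against 2 h gave 7 with the block, 1 with the offset, 1 without filter, 1 with the mean over probe sets and 0 with the covariate, without trend or with only the arms compared, and 0 to 3 without 1 animal.

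LR12 against peptide control gave 1 call at 2 h with the block, with the covariate and with only the arms compared, 1 at 4 h with only the arms compared, and 0 to 3 at 2 h and 0 to 1 at 8 h without 1 animal. LR12 against vehicle gave 6 at 2 h with quantile normalization, and at 8 h 7 with the block and 2 with the mean over probe sets; without 1 animal it gave 3 to 14, 0 to 13 and 1 to 14 at 2, 4 and 8 h. Peptide control against vehicle gave 0 to 4, 0 to 2 and 0 to 3 without 1 animal, and 10, 9 and 12 without peptide control replicate 1 and vehicle replicate 3 together. For changes, LR12 minus peptide control gave 2 at 2 h with the block; LR12 minus vehicle gave at 2 h 7 with the block, 2 with the filter of 28 arrays and 0 with centring, quantile normalization, no filter, the mean over probe sets or no trend, and 6 at 4 h and 5 at 8 h with the block, with 0 to 7, 0 to 6 and 0 to 5 without 1 animal. Peptide control minus vehicle gave 0 to 1 at 2 h without 1 animal, and 4, 2 and 1 without both animals. The block changed no other call than those given. One named change turned its sign: PGD at 8 h after LR12 was -0.126 with the mean over its kept probe sets (adjusted p = 0.823). The cause of these shifts was not tested.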
